A study of Mus musculus with 16 samples.

Results

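Peroxisomal beta-oxidation shortens very long-chain fatty acids inside the peroxisome, and in mammals it carries out the last step of docosahexaenoic acid (DHA) synthesis, in which a 24-carbon precursor loses one acetyl unit. DHA is the main polyunsaturated fatty acid of photoreceptor outer segments. The genes described here are 8 in number, of 54532 genes in the table of uninjected retinas and 48440 in the table of injected retinas, and were taken by gene symbol and by the same gene identifier. They are 2 transporters that import acyl-CoAs (Abcd3, Abcd2), the hydratase and dehydrogenase enzymes of the cycle (Hsd17b4, Ehhadh), the thiolases that end it (Acaa1a, Acaa1b, Scp2) and an auxiliary reductase for double bonds (Decr2). All 8 were found in both tables, and 7 passed the filters on low values in both. The exception was Acaa1b.

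Whole retinas of C57BL6/J mice were profiled by poly(A) RNA-seq in 16 libraries. The uninjected groups were 18-month wildtype (n = 4), 12-month Elovl2 mutant (n = 3) and 12-month wildtype (n = 3). Elovl2 encodes an elongase upstream of these genes, and its substitution is given as C234W by the design text but as C34W by the sample labels. The injected groups were 18-month wildtype retinas, for which 0.36 nmol of 24:5, a polyunsaturated fatty acid with 24 carbons and 5 double bonds, was put into the vitreous of one eye (n = 3) and vehicle into the fellow eye (n = 3), with collection after 5 days. The labels neither link the retinas to animals nor state whether libraries come from different animals. The p-values therefore reflect only variation among these libraries, part of which may be technical. Uninjected libraries held 12810600 to 30519400 reads recovered from their FPKM values (fragments scaled to gene length and library size), and injected libraries 22066668 to 25609242 counts. Recovered reads were 12810600 to 15909800 in 18-month wildtype, 18854200 to 27082500 in 12-month wildtype and 14988800 to 30519400 in mutant libraries. Depth did not overlap between the uninjected wildtype groups, so age and depth cannot be told apart there. The 2 tables were normalised separately, so tests stay within a table. In whole tissue, fewer cells of a type and less RNA per cell cannot be told apart. Rod markers were high in every library, with a summed level of 13984.6 to 15977.8 FPKM over the 12 rod genes in uninjected retinas.

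The thiolase genes Acaa1a and Acaa1b are near-identical copies on chromosome 9, which matters for reading their levels. Their annotated coding sequences in GENCODE M21 (mm10) have the same length, 1275 bases with the stop codon, and differ at 44 positions, an identity of 96.55%. The longest run without a difference is 327 bases, and 15.81% of the 1126 windows of 150 bases are the same in both genes. The most different 120-base window, coding positions 433 to 552 in exons 5 to 7, is shown because a read there can be told apart, with capitals at the 14 mismatches. It spans chr9:119344495-119347736 on the plus strand for Acaa1a and chr9:119150898-119153683 on the minus strand for Acaa1b, introns included.
Acaa1a: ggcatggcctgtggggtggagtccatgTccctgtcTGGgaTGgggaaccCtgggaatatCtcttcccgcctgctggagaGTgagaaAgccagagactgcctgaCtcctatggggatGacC
Acaa1b: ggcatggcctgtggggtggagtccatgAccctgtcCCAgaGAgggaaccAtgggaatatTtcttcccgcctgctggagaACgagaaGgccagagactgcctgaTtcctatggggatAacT
The first 120 bases of the identical run, coding positions 748 to 867 in exons 8 and 9, are shown because a read inside them cannot be assigned to one gene. They span chr9:119348702-119348970 on the plus strand for Acaa1a and chr9:119149401-119149669 on the minus strand for Acaa1b.
Both genes: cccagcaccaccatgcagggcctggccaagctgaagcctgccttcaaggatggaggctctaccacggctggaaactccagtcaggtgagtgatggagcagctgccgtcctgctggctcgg
How the counting treated reads that map to both genes is not given in the sources used here, so the Acaa1a and Acaa1b levels are uncertain to that extent.

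Per gene length, Scp2 was the highest member and Acaa1b the lowest. Mean FPKM over the 10 uninjected libraries was 37.7 for Scp2, 24.7 for Acaa1a, 19.4 for Decr2, 14.2 for Hsd17b4, 10.3 for Abcd3, 7.92 for Abcd2, 1.69 for Ehhadh and 0.320 for Acaa1b. The ranges over the 10 libraries did not overlap between neighbours in this order, for Scp2 and Acaa1a (31.9 to 44.5 against 21.8 to 29.0 FPKM), Acaa1a and Decr2 (21.8 to 29.0 against 18.2 to 21.3), Decr2 and Hsd17b4 (18.2 to 21.3 against 12.7 to 16.5), Hsd17b4 and Abcd3 (12.7 to 16.5 against 9.59 to 11.3) and Abcd3 and Abcd2 (9.59 to 11.3 against 6.64 to 8.63), or below these for Ehhadh (1.41 to 1.99) and Acaa1b (0.152 to 0.549). In the injected libraries the CPM (counts scaled to library size) per kilobase of gene was 43.0 for Scp2, 15.4 for Decr2, 14.9 for Hsd17b4, 12.6 for Acaa1a, 10.9 for Abcd3, 7.56 for Abcd2, 1.79 for Ehhadh and 0.0858 for Acaa1b. By its mean, Acaa1a therefore stood next to Scp2 in the uninjected table and below Decr2 and Hsd17b4 in the injected one. Injected ranges were 13.3 to 18.0 for Decr2, 13.8 to 15.7 for Hsd17b4 and 11.6 to 13.6 CPM per kilobase for Acaa1a. The range of Acaa1a overlapped that of Decr2 and lay just below that of Hsd17b4. Gene lengths were those of the uninjected table. Acaa1a overlaps Myd88 on the opposite strand, which was at 3.06 FPKM in uninjected retinas and at a mean of 513.5 counts in injected ones. The part of this overlap in the difference between the tables was not tested. Hsd17b4 overlaps the pseudogene Cd63-ps (6.83 FPKM) and Scp2 overlaps Podn (0.349 FPKM), each on the same strand. Abcd3 overlaps 4633401B06Rik (0.243 FPKM) and Gm43609 (0.237 FPKM), also on the same strand. Acaa1b overlaps Dlec1 on the opposite strand, which was at 0.239 FPKM in uninjected retinas and at a mean of 26.2 counts in injected ones. These overlaps are of whole gene spans, introns included, and whether exons or counted reads are shared was not tested.

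**Figure D1:**
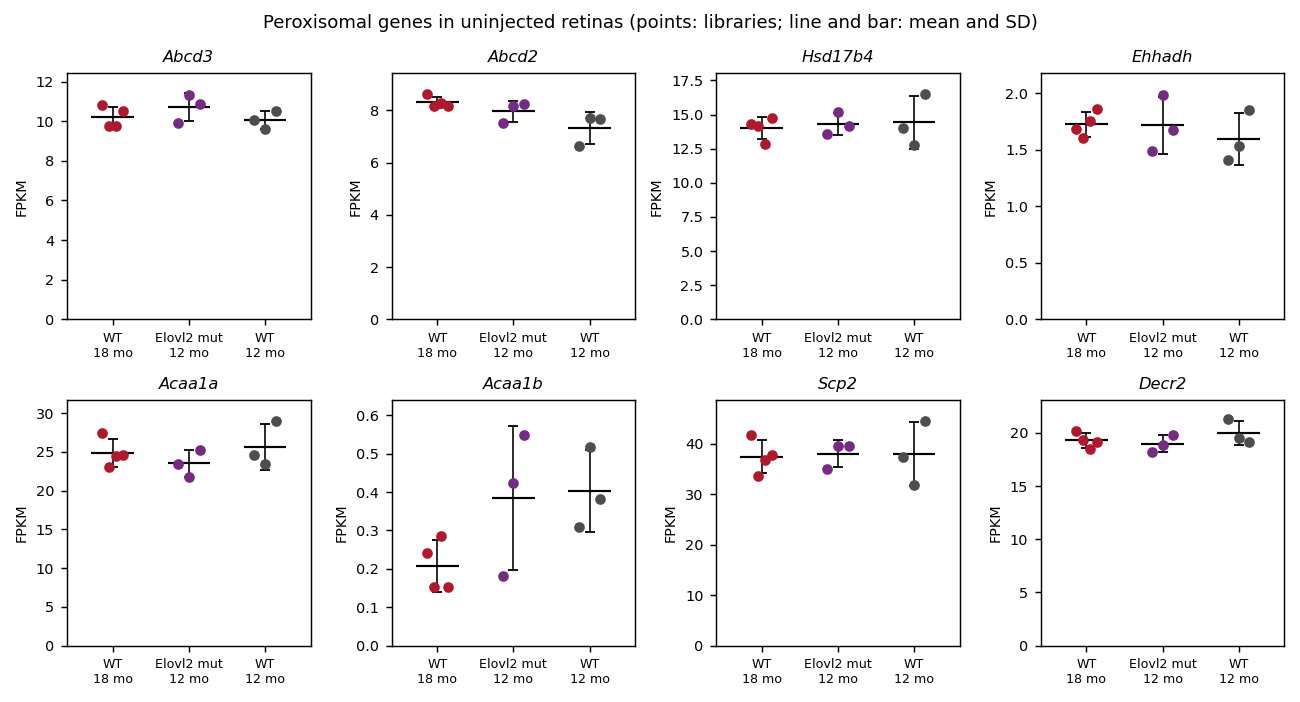
FPKM of the 8 genes in uninjected retinas, 1 panel per gene, with 1 point per library and the mean with SD for 18-month wildtype (n = 4), 12-month Elovl2 mutant (n = 3) and 12-month wildtype (n = 3) retinas. In the Abcd2 panel the 18-month points (8.15 to 8.63 FPKM) lie above the 12-month wildtype points (6.64 to 7.72 FPKM), while for the other tested members these groups overlap.

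Abcd2 and Abcd3 encode half-transporters of the peroxisomal membrane. Abcd2 is known to favour very long-chain polyunsaturated acyl-CoAs, and Abcd3 to import long-chain, branched and dicarboxylic acyl-CoAs. Abcd2 (ENSMUSG00000055782, chromosome 15, 91145871 to 91191799, minus strand, mm10) was at 8.63, 8.15, 8.28 and 8.16 FPKM in the 18-month wildtype retinas, against 6.64, 7.72 and 7.67 FPKM in the 12-month wildtype retinas. Every 18-month value was above every 12-month wildtype value. Group means were 8.31 ± 0.222 (SD, n = 4) and 7.34 ± 0.612 FPKM (SD, n = 3). On the log2(FPKM + 1) scale the difference was 0.16 (SE 0.0666, 95% interval 0.01 to 0.31), with an unadjusted p of 0.0371. The limma p adjusted over all genes was 0.9999, above the threshold of 0.05. Over all 13786 genes tested, 0 passed for age (0%), 503 had an unadjusted p under 0.05 (3.65%) and 575 had groups that did not overlap (4.17%). Abcd2 was the 1 of 7 tested members with an unadjusted p under 0.05, and also the 1 of 7 whose groups did not overlap. With library quality weights in limma, Abcd2 passed for age (log2 0.26, adjusted p = 0.0224), among 1246 of the 13786 genes that then passed. Without 12-month wildtype replicate 1, which had the highest weight (5.76), the unweighted difference was 0.10 with an unadjusted p of 0.168, and without any one of the other libraries of these groups it was 0.14 to 0.19. Some markers of other cells differed between the same groups, with 0 passing. Of the tested pigment epithelium genes 8 of 9 were higher at 18 months (median log2 0.22), and the 12 listed summed to 311.1 to 471.6 FPKM in 18-month and 301.1 to 415.9 FPKM in 12-month wildtype retinas. The largest part of this sum was Rlbp1, at 172.4 to 257.3 FPKM in uninjected libraries, which the Mueller glia marker list holds too. Rpe65 averaged 15.9 FPKM in 18-month and 9.26 FPKM in 12-month wildtype retinas, with groups that overlapped. Of the blood genes 4 of 4 tested were lower (median log2 -0.34), and the 5 listed summed to 47.2 to 79.2 FPKM in 18-month and 54.3 to 118.3 FPKM in 12-month wildtype retinas. No gene of these lists was at 0 throughout a group, and their part in the Abcd2 level was not tested. The 12-month mutants had 7.51, 8.16 and 8.24 FPKM of Abcd2, which overlap both wildtype groups.

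Abcd3 (ENSMUSG00000028127, chromosome 3, 121758774 to 121815302, minus strand), with 10.8, 9.74, 9.76 and 10.5 FPKM in 18-month wildtype retinas, had 10.1, 9.59 and 10.5 FPKM in 12-month wildtype retinas. The groups overlapped, and they differed by 0.02 in log2 (SE 0.0665; limma adjusted p = 0.9999).

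Hsd17b4 (ENSMUSG00000024507, chromosome 18, 50128201 to 50196269, plus strand) encodes the D-bifunctional protein, which hydrates and dehydrogenates the chain and is the enzyme of this step used in DHA synthesis. It was at 14.3, 14.2, 12.8 and 14.8 FPKM in 18-month wildtype retinas, against 14.04, 12.7 and 16.5 FPKM in 12-month wildtype retinas. The range of the 12-month group held all 4 values of the 18-month group. Ehhadh (ENSMUSG00000022853, chromosome 16, 21761287 to 21787807, minus strand), the L-bifunctional enzyme best known for dicarboxylic acids, had 1.69, 1.60, 1.76 and 1.86 FPKM at 18 months and 1.41, 1.53 and 1.85 FPKM at 12 months in wildtype retinas. The groups of Ehhadh overlapped as well. It had 64 to 192 recovered reads per uninjected library, the fewest of the 7 tested members.

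Acaa1a (ENSMUSG00000036138, chromosome 9, 119339676 to 119350299, plus strand), a 3-ketoacyl-CoA thiolase, had 27.4, 23.1, 24.5 and 24.6 FPKM in 18-month wildtype retinas, against 24.6, 23.4 and 29.0 FPKM in 12-month wildtype retinas, overlapping. Scp2 (ENSMUSG00000028603, chromosome 4, 108043839 to 108144998, minus strand) makes both a thiolase for branched and very long chains (SCPx) and a lipid-carrier protein (SCP2). Its values were 41.6, 33.7, 36.7 and 37.8 FPKM in 18-month wildtype retinas and 37.4, 31.9 and 44.5 FPKM in 12-month wildtype retinas. GENCODE M21 lists 4 protein-coding transcripts of Scp2 with 330 to 1641 coding bases, which a level per gene cannot separate. Decr2 (ENSMUSG00000036775, chromosome 17, 26081211 to 26090329, minus strand), a peroxisomal 2,4-dienoyl-CoA reductase, had 20.2, 19.4, 18.5 and 19.2 FPKM in 18-month wildtype retinas and 21.3, 19.5 and 19.1 FPKM in 12-month wildtype retinas. For age, the log2 differences were -0.03 for Hsd17b4 (SE 0.0881), 0.07 for Ehhadh (SE 0.0953), -0.04 for Acaa1a (SE 0.0905), -0.01 for Scp2 (SE 0.114) and -0.05 for Decr2 (SE 0.0613), and the groups overlapped for all 5.

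Acaa1b (ENSMUSG00000010651, chromosome 9, 119148023 to 119157093, minus strand) was listed at 0.242, 0.152, 0.286 and 0.152 FPKM in 18-month wildtype retinas and at 0.309, 0.518 and 0.383 FPKM in 12-month wildtype retinas. The 12-month mutants had 0.181, 0.424 and 0.549 FPKM, which overlap both wildtype groups. The wildtype values rest on 4 to 9 reads per 18-month library and 17 to 20 reads per 12-month library, and the 12-month wildtype libraries were also deeper. The groups did not overlap, but the gene was under the filter and had no test. Tested without that filter, the difference was -0.21 in log2 (SE 0.106) and the adjusted p by limma 0.973.

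In the genotype comparison, which sets Elovl2 mutants beside wildtype mice of the same age, 0 of the 7 tested members passed, none had groups without overlap, and none had an unadjusted p under 0.05. Over all genes tested the counts were 0 of 13786 (0%), 302 with an unadjusted p under 0.05 (2.19%) and 823 without overlap (5.97%). Acaa1a was at 23.5, 21.8 and 25.3 FPKM in mutant retinas and 24.6, 23.4 and 29.0 FPKM in wildtype retinas, with a log2 fold change of -0.12 (SE 0.0967, limma adjusted p = 0.9998). Leaving out 1 library moved this value between -0.18, without 12-month wildtype replicate 2, and -0.03, without 12-month wildtype replicate 3, and it was -0.07 without mutant replicate 2. Abcd2 was at a mean of 7.97 ± 0.402 FPKM in mutant and 7.34 ± 0.612 FPKM in wildtype retinas (SD, n = 3 each; log2 0.11, SE 0.0712), and Abcd3 at 10.7 ± 0.709 FPKM in mutant and 10.1 ± 0.453 FPKM in wildtype retinas (log2 0.08, SE 0.0710). Hsd17b4 differed by log2 -0.01 (SE 0.0942), Ehhadh by 0.06 (SE 0.102), Scp2 by 0.01 (SE 0.122) and Decr2 by -0.07 (SE 0.0655). With library quality weights Abcd2, Ehhadh and Decr2 passed (log2 0.24, 0.24 and -0.14), among 2598 of the 13786 genes tested. The highest weight (5.76) was that of 12-month wildtype replicate 1. Without that library the unweighted difference was 0.04 for Abcd2 and -0.03 for Decr2. For Ehhadh, leaving out 1 library gave -0.0054, without mutant replicate 2, to 0.13, without 12-month wildtype replicate 3. The 95% intervals of the 7 members ran from -0.33 to 0.29 on the log2(FPKM + 1) scale.

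Between 18-month wildtype and 12-month mutant retinas, which differ in age and genotype together, 0 of 7 tested members passed and none had groups without overlap. Over all genes 0 of 13786 passed (0%), 295 had an unadjusted p under 0.05 (2.14%) and 616 had groups without overlap (4.47%). The log2 fold changes of members lay between -0.06 (Abcd3, SE 0.0665) and 0.08 (Acaa1a, SE 0.0905). These comparisons share their wildtype or mutant libraries with the others.

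**Figure D2:**
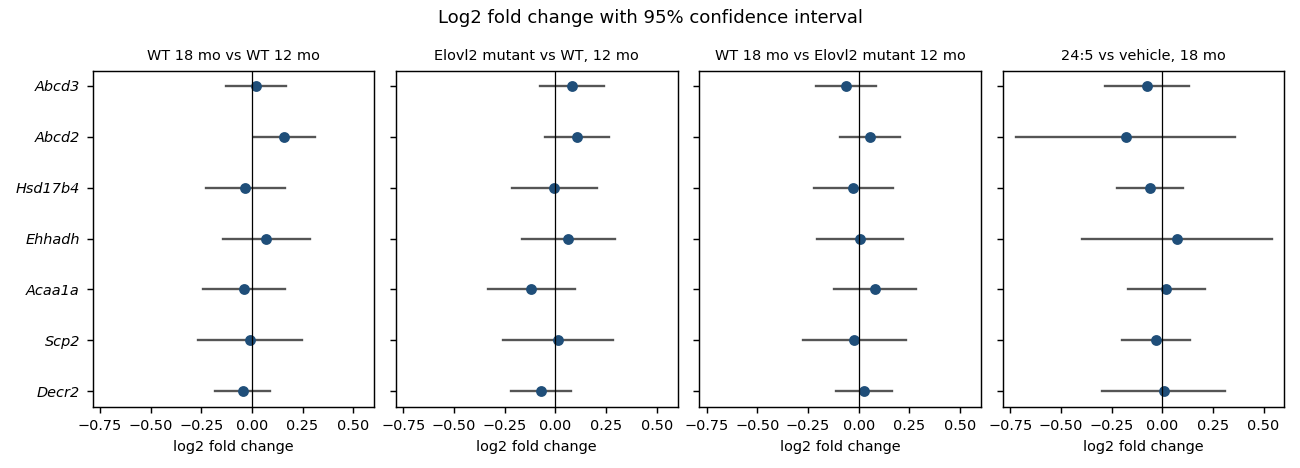
Log2 fold changes (points) with 95% confidence intervals (lines) for the 7 tested members in 4 comparisons, the first 3 on the log2(FPKM + 1) scale and the last from TMM-normalised counts. All intervals hold 0 except that of Abcd2 in the comparison of 18-month with 12-month wildtype retinas (0.01 to 0.31), and the widest is that of Abcd2 with 24:5 (-0.72 to 0.36).

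Some members also differed between libraries of the same group, beside the level of the nuclear RNA Malat1. Malat1 was between 229.1 and 376.8 FPKM in 5 uninjected libraries (18-month wildtype replicates 2 and 3, mutant replicate 1, and 12-month wildtype replicates 1 and 2) and between 85.7 and 149.97 FPKM in the other 5. Abcd3 was at 9.59 to 10.1 FPKM in the libraries with high Malat1 and 10.5 to 11.3 FPKM in those with low Malat1, and Scp2 at 31.9 to 37.4 FPKM with high and 37.8 to 44.5 FPKM with low Malat1, without overlap for either gene. Hsd17b4 overlapped by a little, at 12.7 to 14.2 FPKM with high and 14.2 to 16.5 FPKM with low Malat1, and Decr2 overlapped at 18.2 to 21.3 FPKM with high and 18.9 to 20.2 FPKM with low Malat1. Abcd2, at 6.64 to 8.28 FPKM with high and 7.67 to 8.63 FPKM with low Malat1, Ehhadh, at 1.41 to 1.76 FPKM with high and 1.68 to 1.99 FPKM with low Malat1, and Acaa1a, at 23.1 to 24.6 FPKM with high and 21.8 to 29.0 FPKM with low Malat1, overlapped too. The 2 of 7 tested members without overlap stand beside 3102 of all 13786 genes tested (22.5%), so such a separation was common among genes in general. With the Malat1 split in the fit, 0 members passed in any of the 3 comparisons, and Abcd2 differed by 0.15 in log2 for age (limma adjusted p = 0.707).

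**Figure D3:**
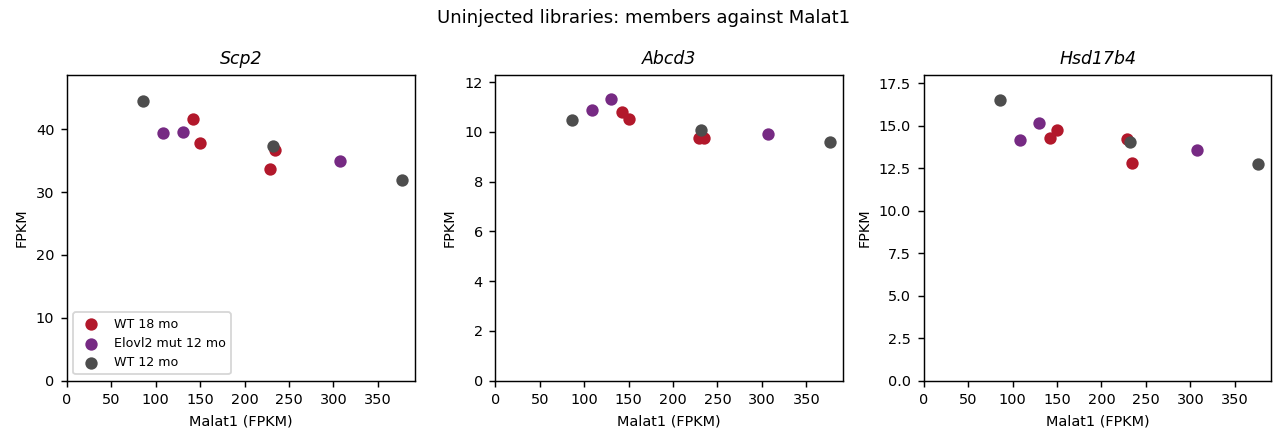
FPKM of Scp2, Abcd3 and Hsd17b4 against FPKM of Malat1 in the 10 uninjected libraries, 1 point per library, coloured by group. The 5 libraries with high Malat1 lie at or below 37.4 FPKM of Scp2, and the other 5 at or above 37.8 FPKM.

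In retinas given 24:5, the members were tested in TMM-normalised counts against the vehicle-injected retinas. This test did not pair fellow eyes, since the labels do not link retinas to animals. None of 7 passed (smallest unadjusted p 0.430, edgeR adjusted p = 0.997), and none had groups without overlap. Over all genes 2 of 17466 passed (0.0115%), 1154 had an unadjusted p under 0.05 (6.61%) and 2024 had groups without overlap (11.6%). Abcd2 was at 54.9, 38.2 and 33.4 CPM with 24:5 and 49.6, 56.5 and 37.3 CPM with vehicle, with a log2 fold change of -0.18 (SE 0.226). This value rested on single libraries: it was -0.42 without 24:5 replicate 1 (unadjusted p 0.0415, edgeR adjusted p = 0.471), -0.12 without 24:5 replicate 2, -0.04 without 24:5 replicate 3, -0.05 without vehicle replicate 2 and -0.32 without vehicle replicate 3. It turned to 0.13 with the mean of a lens gene list as a covariate. Abcd3 was at 75.4, 71.8 and 63.0 CPM with 24:5 and 73.4, 79.4 and 68.7 CPM with vehicle (log2 -0.07, SE 0.0906). Decr2 was at 41.1, 34.3 and 30.5 CPM with 24:5 and 36.4, 38.2 and 30.8 CPM with vehicle (log2 0.01, SE 0.130). In each of these genes the replicates of a group differed more than the group means did.

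Hsd17b4 was at 52.1, 49.5 and 47.0 CPM with 24:5 and 50.9, 50.4 and 53.4 CPM with vehicle (log2 -0.06, SE 0.0706). Scp2 was at 140.9, 158.7 and 144.1 CPM with 24:5 and 148.5, 146.5 and 157.7 CPM with vehicle (log2 -0.03, SE 0.0726). As mean ± SD of 3 libraries, Acaa1a was at 55.95 ± 4.45 CPM after 24:5, against 55.2 ± 2.67 CPM after vehicle, and Ehhadh at 5.48 ± 1.15 CPM after 24:5, against 5.21 ± 0.423 CPM after vehicle. The groups of both genes overlapped. Acaa1b had 4, 2 and 3 counts with 24:5 and 5, 7 and 3 with vehicle.

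**Figure D4:**
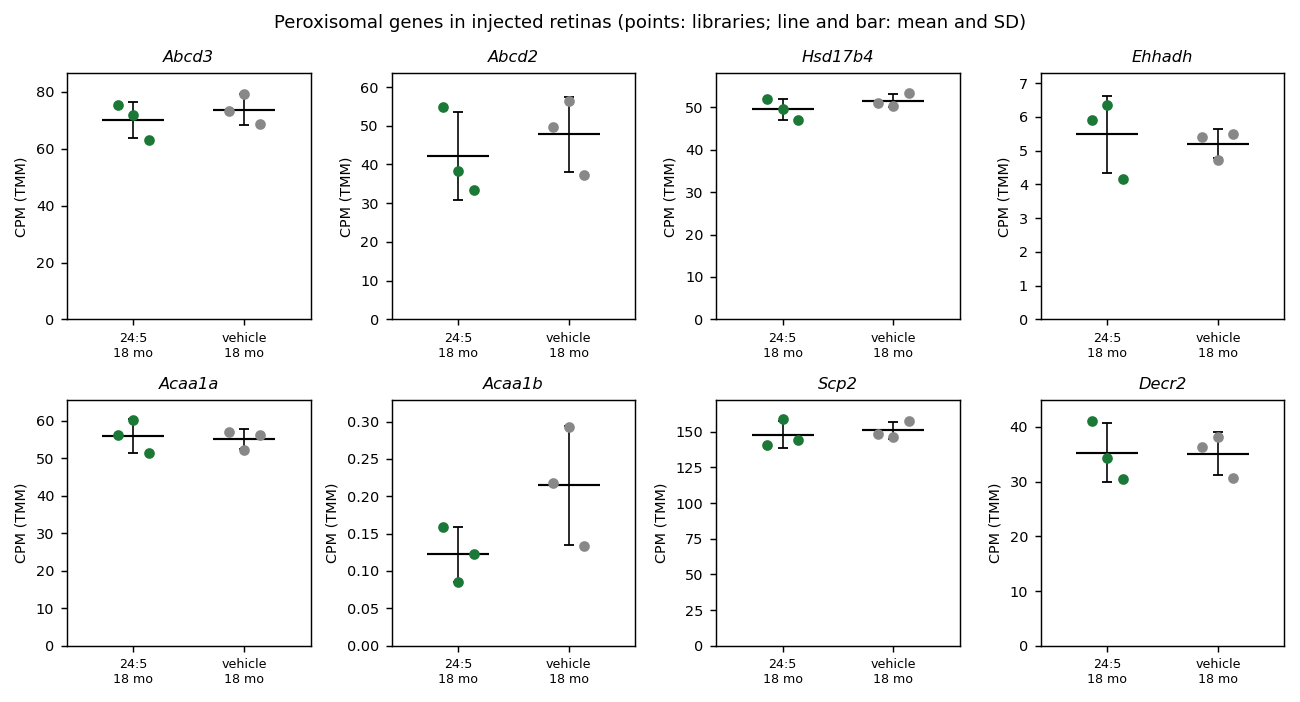
TMM-normalised CPM of the 8 genes in injected retinas, 1 panel per gene, with 1 point per library and the mean with SD for 24:5 and vehicle (n = 3 each). The 2 groups overlap in every panel of a tested gene, and Abcd2 has the widest spread of these after scaling by its mean (22.04% over the 6 libraries).

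The injected libraries also split on Irf9, an interferon-response gene, which was at 21.6, 203.8 and 155.5 CPM with 24:5 and 61.0, 57.7 and 233.0 CPM with vehicle. The 3 libraries at 155.5 CPM or more (24:5 replicates 2 and 3 and vehicle replicate 3) had 33.4 to 38.2 CPM of Abcd2, against 49.6 to 56.5 CPM in the other 3. Abcd3 was at 63.0 to 71.8 CPM in the libraries with high Irf9 and 73.4 to 79.4 CPM in the others, and Decr2 at 30.5 to 34.3 CPM with high Irf9 and 36.4 to 41.1 CPM in the others. These 3 members did not overlap between the sides, while Hsd17b4, Scp2, Acaa1a and Ehhadh did. The 3 of 7 tested members without overlap stand beside 5300 of all 17466 genes tested (30.3%), so their share is not far from that of genes in general. The split was drawn after the values were seen, and it crosses the treatment, with 2 of 3 libraries high for 24:5 and 1 of 3 high for vehicle. Among libraries with low Irf9, Abcd2 was at 54.9 CPM with 24:5, against 49.6 and 56.5 CPM with vehicle. Among those with high Irf9, it was at 38.2 and 33.4 CPM with 24:5, against 37.3 CPM with vehicle. With this split as a term in the fit, Abcd2 differed by -0.0030 in log2 between 24:5 and vehicle (edgeR adjusted p = 0.995), and 0 members passed. The lens crystallin gene Cryaa also differed among these libraries, at 306.6, 64.2 and 22.6 CPM with 24:5 and 784.1, 962.8 and 63.4 CPM with vehicle. Summed over the 12 lens genes, levels were 61.9 to 731.5 CPM with 24:5 and 138.5 to 1944.4 CPM with vehicle, and summed over the 12 microglia genes 111.1 to 214.0 CPM with 24:5 and 245.7 to 417.2 CPM with vehicle, without overlap. Of the tested markers, 12 of 12 microglia genes, 11 of 11 lens genes, 8 of 12 Mueller glia genes, 9 of 10 endothelial genes and 4 of 5 blood genes were lower with 24:5, while 11 of 12 rod genes and 8 of 11 pigment epithelium genes were higher, with 0 passing the threshold. Rod genes summed to 52365.9 to 55049.8 CPM with 24:5 and 43779.9 to 51480.8 CPM with vehicle, also without overlap. Mueller glia genes summed to 4855.8 to 6035.1 CPM with 24:5 and 5820.8 to 6484.9 CPM with vehicle, overlapping. Endothelial genes summed to 578.6 to 693.0 CPM with 24:5 and 674.8 to 779.5 CPM with vehicle, pigment epithelium genes to 630.6 to 898.0 CPM with 24:5 and 536.0 to 869.9 CPM with vehicle, and blood genes to 15.7 to 32.7 CPM with 24:5 and 12.2 to 46.5 CPM with vehicle. Rlbp1, at 243.5 to 386.1 CPM over the injected libraries, is counted in both the Mueller glia and the pigment epithelium lists. It was the largest part of the pigment epithelium sum. No marker was at 0 in every library of an injected group. In the fit that included mean lens gene expression, Abcd3 differed by 0.02 and Abcd2 by 0.13 in log2 between 24:5 and vehicle, with 0 members passing, while the part of the other marker lists in the levels of the peroxisomal genes was not tested. In uninjected retinas 0 markers passed, and the lens list had 0 of 12 genes above the filter. It summed to 1.64 to 2.45 FPKM in 18-month wildtype retinas (2 genes at 0 throughout), 1.44 to 2.87 FPKM in mutant retinas (1 gene) and 1.37 to 2.61 FPKM in 12-month wildtype retinas (1 gene).

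**Figure D5:**
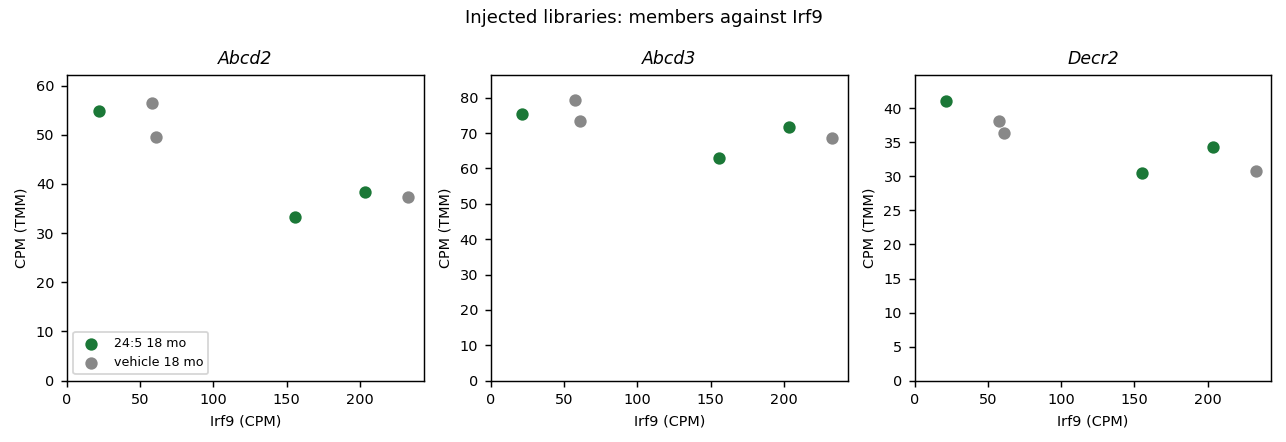
CPM of Abcd2, Abcd3 and Decr2 against CPM of Irf9 in the 6 injected libraries, 1 point per library, coloured by 24:5 or vehicle. In each panel the 3 libraries with Irf9 at 155.5 CPM or more sit below the other 3.

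Members varied together to different degrees. Across the 10 uninjected libraries Pearson's r of log2(FPKM + 1) was 0.776 for Hsd17b4 and Scp2, 0.756 for Abcd3 and Scp2 and -0.413 for Ehhadh and Decr2, and across the 6 injected libraries, of log2(CPM + 1), it was 0.918 for Abcd3 and Abcd2, 0.935 for Abcd2 and Decr2, 0.947 for Ehhadh and Acaa1a and -0.506 for Scp2 and Decr2. These are descriptions over few libraries that share depth and the splits above. The genes whose levels were most like each member over the 10 uninjected libraries were Med9 (r = 0.960) and Alg5 (0.939) for Abcd3, Rwdd2a (0.960) and Elovl4 (0.943) for Abcd2, Stmn2 (0.956) and Rtl8c (0.954) for Hsd17b4, Dcun1d1 (0.9754) and Nek7 (0.953) for Ehhadh, Hgh1 (0.964) and Tufm (0.957) for Acaa1a, Vps45 (0.984) and Fam174a (0.983) for Scp2, and Ehd2 (0.898) and Mlf1 (0.882) for Decr2.

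The rest of the peroxisome was described with lists of genes. Of 24 other peroxisomal beta-oxidation genes, 18 were tested in uninjected and 19 in injected retinas, and 0 passed in any of the 4 comparisons. Their median log2 fold change was 0.01 for age, -0.01 for genotype and -0.06 with 24:5, beside -0.0014, -0.0060 and 0.0028 over all genes tested. Acot8, an acyl-CoA thioesterase, was at 11.2 FPKM in 18-month and 9.86 FPKM in 12-month wildtype retinas (log2 0.16, SE 0.0858), and Pecr, an enoyl-CoA reductase, at 2.12 FPKM in 18-month and 2.40 FPKM in 12-month wildtype retinas (log2 -0.13, SE 0.0966; limma adjusted p = 0.9999 for both). Of 24 peroxisome biogenesis genes, 23 were tested in uninjected and 24 in injected retinas, with 0 passing. Pex3, which helps to insert peroxisomal membrane proteins, was at 5.75 FPKM in mutant and 5.00 FPKM in wildtype retinas at 12 months (log2 0.17, SE 0.0695, limma adjusted p = 0.9998), with groups that did not overlap. Pxmp4, a peroxisomal membrane protein gene, was at 3.44 FPKM in mutant and 3.04 FPKM in wildtype retinas (log2 0.13, SE 0.0746, limma adjusted p = 0.9998), also without overlap. For genotype, 5.97% of all genes tested had groups without overlap. Of 11 ether lipid and antioxidant genes, 8 were tested in uninjected and 10 in injected retinas, with 0 passing. Agps, an ether lipid synthase gene, had 69.4 CPM with 24:5, against 61.5 CPM with vehicle (log2 0.17, SE 0.0729, edgeR adjusted p = 0.732), without overlap. Cat, the catalase gene, had 21.9 CPM with 24:5 and 27.5 CPM with vehicle (log2 -0.33, SE 0.169, edgeR adjusted p = 0.850), overlapping. With 24:5, 11.6% of all genes tested had groups without overlap.

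Upstream of the peroxisomal step, 9 of 9 elongation and desaturation genes were tested in each table, and 0 passed. Elovl2 was at 23.9 FPKM in 18-month and 21.3 FPKM in 12-month wildtype retinas (log2 0.17, SE 0.0685, limma adjusted p = 0.9999), without overlap. Elovl4, which makes still longer chains, was at 189.2 FPKM in 18-month and 171.3 FPKM in 12-month wildtype retinas (log2 0.14, SE 0.0835, limma adjusted p = 0.9999), also without overlap. For age, 4.17% of all genes tested had groups without overlap. Elovl5, which elongates shorter precursors, averaged 39.8 CPM after 24:5 and 46.3 CPM after vehicle (log2 -0.22, SE 0.0701, edgeR adjusted p = 0.496), without overlap. Fads2, a desaturase, averaged 29.6 CPM after 24:5 and 38.2 CPM after vehicle (log2 -0.37, SE 0.143, edgeR adjusted p = 0.679), overlapping. Of 12 PPAR-responsive lipid genes, 9 were tested in uninjected and 12 in injected retinas, with 0 passing. Plin2, a lipid droplet coat protein gene, had 10.6 CPM with 24:5, against 15.8 CPM with vehicle (log2 -0.58, SE 0.166, edgeR adjusted p = 0.459), without overlap. Ppargc1a, a transcriptional coactivator gene, had 64.2 CPM with 24:5 and 55.4 CPM with vehicle (log2 0.21, SE 0.110, edgeR adjusted p = 0.852), overlapping. Groups did not overlap for 11.6% of all genes tested with 24:5.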

How the data were processed

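Retinal RNA was profiled in 16 libraries, prepared per the labels' protocols from poly(A) RNA with strand marking. The submitters' processing notes list HISAT2 2.2.1, featureCounts 2.0.6, DESeq2 1.42.0 and mm10 without saying which did what. The annotation release, like the strand setting, is not given in the sources used here. The uninjected table holds FPKM values the authors deposited, and the injected table raw counts the authors deposited. FPKM times gene length gave whole reads, within 0.02, for 100% of values above 0. Uninjected retinas were tested as log2(FPKM + 1) by robust limma-trend (limma 3.58.1, R 4.3.3), for the 13786 genes averaging 1 FPKM or more, with all 3 groups in 1 fit. This scale understates changes of low genes. For injected retinas edgeR 4.0.16 was used (robust quasi-likelihood test, TMM, filterByExpr, 17466 genes). Both were two-sided, adjusted by Benjamini-Hochberg, with a threshold of 0.05, and both were tested on simulated data. Members and lists were chosen with earlier results of these data known. Named genes are every member, the 2 of a list with the smallest p in a comparison described, and the 2 genes most like each member. Malat1, Irf9 and Cryaa are given for the library splits. Rod, glial, pigment epithelium, microglial, lens, endothelial and blood marker lists describe the libraries. No replicates were alike within counting noise (chi-square per degree of freedom 3.25 to 47.6). Alternatives were other pseudocounts, filters, tools, scalings, weights, splits and left-out libraries.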

Additional observations from a re-analysis of the deposited data

How the results depend on the processing

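Members past the threshold were 0 in each of the 4 comparisons under every alternative run except library quality weights, which gave 1 for age (Abcd2, log2 0.26, adjusted p = 0.0224) and 3 for genotype (Abcd2 0.24, Ehhadh 0.24 and Decr2 -0.14, adjusted p = 0.0152, 0.0351 and 0.0397, limma). These weights were 0.237 to 5.76, highest for 12-month wildtype replicate 1. With them 1246, 2598 and 5 of 13786 genes passed for age, genotype and 18-month wildtype against mutant. Genes past the threshold, against 0 in those 3 comparisons, were otherwise 4, 4 and 1 with no filter, 1 for age with edgeR, 9 for age and 11 for 18-month wildtype against mutant with DESeq2, 1 for each of these with the Malat1 split as a term, and 2 for the last with only the 2 groups compared.

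With 24:5, against 2 genes, DESeq2 called 245, no filter 85, limma-voom with weights 11, the log2 Irf9 split 1, the lens covariate 177, and a linear Irf9 split, chosen after seeing the data, 300. The log2 Irf9 split set only 24:5 replicate 1 (Irf9 21.6 CPM) apart from the other libraries. It therefore came close to leaving that library out and did not set high against low Irf9. The linear split is the one described above, with high and low Irf9. Leaving out 1 library gave 0 to 105, with 105 without vehicle replicate 3, 1 without 24:5 replicate 1 and 0 without each of the others. Replicate numbers were not taken as pairs. Correlations of same-numbered libraries ran from -0.468, for replicate 1 of the 18-month wildtype and mutant groups, to 0.530. Between 24:5 and vehicle they were 0.477, -0.291 and 0.530 for replicates 1, 2 and 3. Not every library correlated best with its own number: 24:5 replicate 2 had r = 0.363 with vehicle replicate 3 and -0.291 with vehicle replicate 2. With 3 libraries per group that also split on Irf9, these correlations cannot decide whether same-numbered retinas were fellow eyes. With the replicate block, 88 genes passed for 24:5.

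Members whose sign turned, none past the threshold there, were as follows. Median centring gave log2 0.0015 for Scp2 (age), 0.013 for Hsd17b4 (genotype) and -0.0013 for Ehhadh (18-month wildtype against mutant). Weights gave 0.074 for Hsd17b4 (genotype) and -0.066 for Ehhadh (18-month wildtype against mutant). The Malat1 split gave -0.00051 for Abcd3 (age), and for Scp2 -0.062 (genotype) and 0.016 (18-month wildtype against mutant). DESeq2 gave -0.0039 and the replicate block -0.016 for Ehhadh in the last. With 24:5, Scp2 was at 0.024 and Decr2 at -0.096 with weights, and at 0.0052 and -0.12 with the log2 Irf9 split, while Abcd3 was at 0.020 and Abcd2 at 0.13 with the lens covariate. Causes were not tested.

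Leaving out 1 library also turned signs. The ranges were, for age, -0.012 to 0.047 (Abcd3), -0.11 to 0.062 (Hsd17b4), -0.10 to 0.048 (Acaa1a) and -0.12 to 0.11 (Scp2). For genotype they were -0.086 to 0.089 (Hsd17b4), -0.0054 to 0.13 (Ehhadh) and -0.10 to 0.13 (Scp2). For 18-month wildtype against mutant they were -0.062 to 0.015 (Hsd17b4), -0.054 to 0.077 (Ehhadh), -0.080 to 0.027 (Scp2) and -0.0026 to 0.055 (Decr2). With 24:5 they were -0.048 to 0.24 (Ehhadh), -0.038 to 0.079 (Acaa1a), -0.085 to 0.0099 (Scp2) and -0.12 to 0.10 (Decr2).

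Low depth limits Acaa1b, with 2 to 27 reads per library, and the 95% intervals with 24:5 differed in width between members, from -0.72 to 0.36 in log2 for Abcd2 and -0.39 to 0.54 for Ehhadh to -0.22 to 0.10 for Hsd17b4 and -0.20 to 0.14 for Scp2.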
